A study of Oryza sativa Indica Group with 24 samples.

Results

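In the developing grains of RD57, a high-amylose rice, and RD6, a waxy rice, 200 genes of the 26362 in the table were chosen for a level that was highest at 14 days post anthesis (DPA) and alike in both cultivars. Levels are FPKM, that is fragment counts divided by transcript length and by library size, and were compared as log2(FPKM + 0.5). A gene qualified when its largest group mean lay between 5 and 500 FPKM and the cultivars differed by less than 1 on the log2 scale at each of the 4 DPA. This left 11351 shared genes. The score was the mean of both cultivars at 14 DPA minus the highest of the means at 7, 21 and 28 DPA. It reached 1 in 410 shared genes, and the 200 with the highest scores were kept. The levels at 14 DPA, the scores and the likeness of the cultivars were therefore used to choose the genes and are described without a test.

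The 8 groups were RD57 and RD6, each sampled at 4 ages (7, 14, 21 or 28 DPA) with 3 biological replicates, 24 libraries in all. Plants of both cultivars were grown in pots in a net house under natural light, and each is an established indica cultivar, so that a difference between them is a difference between 2 whole genotypes. GEO's labels give the tissue as endosperm, while the methods describe grains cut from the panicles, and the sources used here do not say whether other grain tissues were removed. The table lists assembly identifiers (XLOC numbers) without gene names, and 0 of them matched the RefSeq rice gene table used here. The functions of the 200 genes and the tissue markers were therefore not analysed here, and no sequence is shown.

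The rice endosperm first divides and forms cell walls, then fills with starch and storage protein, and finally dries while its starchy cells die. Starch is made from sucrose by way of ADP-glucose, and storage protein is laid down in protein bodies of the endoplasmic reticulum and in vacuoles. Whether the chosen genes belong to a passing phase of this programme was not tested, since their functions were not analysed. In such bulk samples, fewer cells of a type and less RNA per cell cannot be told apart.

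Among the shared genes, a mean at least 1 above every other DPA was more frequent at 7 and 14 DPA than at the later DPA. With the same rule centred on the other DPA, 343 genes reached a score of 1 for a peak at 7 DPA, 410 for 14 DPA, 16 for 21 DPA and 9 for 28 DPA. Without the threshold, 7 DPA held the highest mean in 29.3% of the shared genes, 14 DPA in 25.5%, 21 DPA in 12.7% and 28 DPA in 32.4%. The highest score was 6.25 for a peak at 7 DPA, 5.41 for 14 DPA, 2.23 for 21 DPA and 1.24 for 28 DPA.

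Most of the 200 peaks were moderate. The median score was 1.67, which is 3.18-fold over the next highest DPA on the scale of FPKM + 0.5. The score was under 1.5 in 58 genes, at least 2 in 46 and at least 3 in 8. The last gene taken had a score of 1.36 and the next one, left out, 1.35. The gene just inside averaged 118 ± 44.6, 289 ± 86.3, 45.7 ± 4.72 and 42.7 ± 1.96 FPKM over the 4 DPA, early to late, in RD57 (SD, n = 3), and 79.0 ± 22.8, 206 ± 39.6, 58.9 ± 13.0 and 38.1 ± 9.22 FPKM in RD6. The gene just outside averaged 25.9 ± 11.6, 123 ± 17.9, 45.8 ± 15.1 and 24.5 ± 5.81 FPKM in RD57, and 13.8 ± 0.976, 96.3 ± 15.9, 40.3 ± 6.52 and 25.6 ± 4.41 FPKM in RD6.

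The median level of the 200 genes was highest in the 6 libraries of 14 DPA, where it was 23.7 to 32.1 FPKM. In the 3 libraries of 7 DPA it was 3.95, 12.9 and 8.66 FPKM in RD57, and 6.76, 6.68 and 4.89 FPKM in RD6. The libraries of 14 DPA had medians of 29.7, 32.1 and 23.7 FPKM in RD57, and of 24.95, 29.5 and 25.4 FPKM in RD6. By 21 DPA the medians were 6.17, 2.94 and 7.01 FPKM in RD57, against 4.67, 6.98 and 8.75 FPKM in RD6, and by 28 DPA they were 1.01, 1.10 and 1.06 FPKM in RD57, against 0.762, 1.05 and 2.48 FPKM in RD6. The libraries of 14 DPA did not overlap those of any other DPA, while those of 7 and 21 DPA did overlap. Together the 200 genes held 0.669 to 0.962% of the summed FPKM at 14 DPA and at most 0.457% at the other DPA. The summed FPKM of a library differed with the DPA, being 1143780 to 1748780 in the 14 DPA libraries and 595147 to 1176790 in the others. The median of the shared genes on the log2 scale was nevertheless 3.67 to 3.81 in all 24 libraries.

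**Figure D1:**
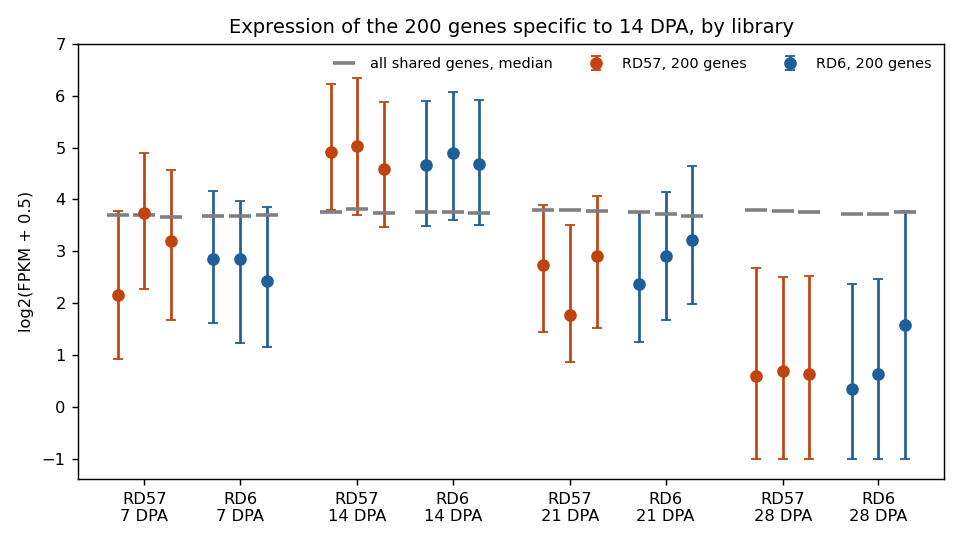
Median log2(FPKM + 0.5) of the 200 genes in each of the 24 libraries, by DPA and cultivar; the bars span the 25th to the 75th percentile of the genes, and the grey marks give the median of the 11351 shared genes. The points of 14 DPA lie above those of the other DPA, and the grey marks stay between 3.67 and 3.81.

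Single genes spanned a wide range of levels. At 14 DPA the mean ran between 3.89 and 449 FPKM in RD57, with a median of 29.7, and between 1.82 and 458 FPKM in RD6, with a median of 26.9. The mean of both cultivars was at least 100 FPKM in 34 genes and under 10 FPKM in 37. The most abundant gene held 499, 427 and 345.0 FPKM at 14 DPA in RD57, against 407, 462 and 505 in RD6. At 7 DPA it held 77.9, 165 and 134 FPKM in RD57 and 111, 81.7 and 79.5 in RD6, and at 21 DPA 95.2, 82.8 and 113 FPKM in RD57 and 63.6, 89.7 and 159.0 in RD6. Its levels at 28 DPA were 41.5, 45.1 and 57.7 FPKM in RD57, against 32.1, 50.4 and 122 in RD6. All 6 libraries of 14 DPA lay above all the others, and at 28 DPA replicate 3 of RD6 stood above the rest.

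Every one of the 200 genes was above 0 at 14 DPA, and fewer were at the later DPA. The deposited table holds 0 where a gene stayed below the authors' floor of 0.5 FPKM or was found in fewer than 2 replicates. Of the 200 genes, 184 were above 0 at 7 DPA, 191 at 21 DPA and 113 at 28 DPA. Among all shared genes, 99.2% were above 0 at 7 DPA and 96.0% at 28 DPA. Of the 200 genes chosen in the same way for a peak at 7 DPA, 120 were above 0 at 28 DPA. A gene was at 0 in both cultivars or in neither, which the rule itself brings about, since 0 and 0.5 FPKM already differ by 1 on the log2 scale.

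The genes fell into 4 main patterns of detection. All 4 DPA were above 0 in 112 genes, with medians of the group means of 59.8 FPKM in RD57 and 51.3 in RD6 at 14 DPA, and of 4.67 FPKM in RD57 and 6.75 in RD6 at 28 DPA. Another 71 genes were above 0 at 7, 14 and 21 DPA and at 0 at 28 DPA, and were less abundant, with medians of 15.9 FPKM in RD57 and 15.2 in RD6 at 14 DPA. In 7 genes the level was above 0 only at 14 and 21 DPA. At 14 DPA these averaged 5.28 to 18.9 FPKM in RD57 and 4.15 to 17.4 in RD6, and at 21 DPA 0.836 to 1.72 FPKM in RD57 and 1.51 to 3.69 in RD6. In 8 genes the level was above 0 at 14 DPA alone, with means of 5.13 to 19.4 FPKM in RD57 and 1.82 to 23.0 in RD6. The other 2 genes were at 0 only at 7 DPA or at both 21 and 28 DPA.

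The highest scores came from genes of low abundance that were listed at 0 elsewhere. The 8 genes found only at 14 DPA had scores of 2.69 to 5.41, with a median of 3.18. The gene ranked 1 held 24.1, 19.4 and 14.6 FPKM at 14 DPA in RD57, against 25.7, 20.2 and 23.0 in RD6, and was at 0 in the other 18 libraries. In each cultivar 1 of its 3 values equalled the mean of the other two, as a value filled in by the authors would. The gene ranked 2, with a score of 4.59, held 11.04, 23.2 and 14.6 FPKM in RD57 and 15.3, 9.71 and 4.03 in RD6 at 14 DPA, and 0 elsewhere. No fold is given for either gene, because the level below the floor is not known.

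The gene ranked 3, with a score of 3.71, was above 0 at 3 DPA and varied widely between replicates. It held 75.25, 45.1 and 19.7 FPKM at 14 DPA in RD57, against 28.8, 44.3 and 61.7 in RD6. Its levels at 7 DPA were 0.539, 7.06 and 7.15 FPKM in RD57, against 2.59, 2.77 and 0.978 in RD6. At 21 DPA it held 4.04, 0.619 and 3.72 FPKM in RD57 and 1.94, 2.43 and 6.98 in RD6, and at 28 DPA it was listed at 0. The lowest library of 14 DPA still lay above all libraries of 7 and 21 DPA.

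The DPA next to the peak was 7 DPA in 120 genes, with a median score of 1.59, and 21 DPA in 71 genes, with a median score of 1.72. The remaining genes were the 8 found only at 14 DPA and 1 gene whose next highest mean was at 28 DPA. That gene averaged 8.69, 22.5, 6.42 and 7.18 FPKM in RD57 and 8.20, 27.6, 6.66 and 10.02 FPKM in RD6 at 7, 14, 21 and 28 DPA. Within a single cultivar the order was not the same. In RD57 the next highest DPA was 7 DPA in 146 genes and 21 DPA in 45, whereas in RD6 it was 7 DPA in 82 genes and 21 DPA in 105. All 200 genes were highest at 14 DPA in each cultivar, but the gap to the next highest DPA was under 1 in 4 genes in RD57 and in 11 genes in RD6. The 28 DPA mean was the lowest, or level with the lowest, in 192 genes in RD57 and 182 in RD6.

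**Figure D2:**
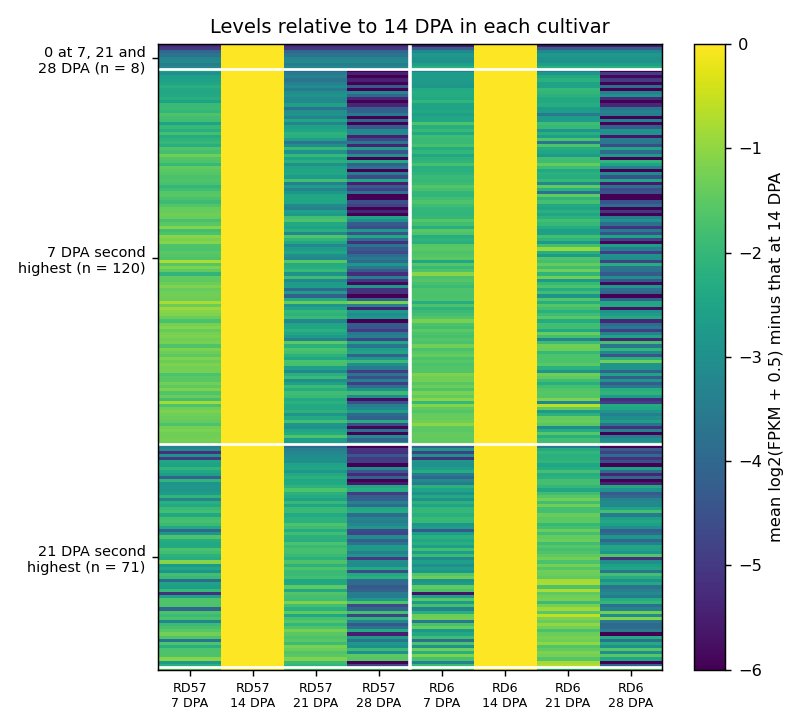
Mean log2(FPKM + 0.5) minus that at 14 DPA for the 200 genes (rows) at each DPA in RD57 (left) and RD6 (right), grouped by the next highest DPA. The genes are split into 8 at 0 at 7, 21 and 28 DPA, 120 with 7 DPA next highest, 71 with 21 DPA next highest and, in the unlabelled bottom row, 1 with 28 DPA next highest.

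All 6 libraries of 14 DPA were above all 18 others in 165 of the 200 genes, and 4.29% of the 26362 genes had this property, but the rule used these values and nothing is read from the count. Within RD57 the 3 libraries of 14 DPA were above the 9 others in 189 genes (12.3% of all genes), and within RD6 in 193 (11.9% of all genes), again by values the rule used. Of the 35 genes with an overlap, the highest library of another DPA was replicate 2 of RD57 at 7 DPA in 18, and replicate 3 of RD6 at 21 DPA in 8. The 3 replicates of 14 DPA spanned a median of 0.64 on the log2 scale in RD57 and 0.47 in RD6, against 0.47 in RD57 and 0.36 in RD6 for all shared genes. They spanned more than 1 in 39 genes in RD57 and in 23 in RD6.

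Replicates differed more in these genes than in the shared genes, and the genes moved together between replicates. At 7 DPA the median SD of the genes above 0 was 0.626 in RD57 and 0.328 in RD6, against 0.235 in RD57 and 0.173 in RD6 for the shared genes. At 21 DPA it was 0.441 in RD57 and 0.506 in RD6, against 0.162 in RD57 and 0.222 in RD6 for the shared genes. In RD57 at 7 DPA, replicate 1 was below the group mean in 171 of the 184 genes above 0, and replicate 2 was above it in 171. Their median deviations from the group mean were -0.62 and 0.50 on the log2 scale. The 200 genes chosen by the same rule for 7 DPA moved the opposite way in these libraries, with median deviations of 0.42 in replicate 1 and -0.32 in replicate 2. At 21 DPA, replicate 2 of RD57 was below its group mean in 167 of 191 genes and replicate 1 of RD6 in 170, whereas replicate 3 of RD6 was above it in 172. At 28 DPA, replicate 3 of RD6 was above its group mean in 104 of 113 genes, with a median deviation of 0.78. In these libraries of 21 and 28 DPA the 7 DPA genes did not move the opposite way. Their median deviations at 21 DPA were -0.01 in replicate 2 of RD57, and -0.24 and 0.08 in replicates 1 and 3 of RD6. At 28 DPA their median deviation was 0.13 in replicate 3 of RD6. In each library, by contrast, between 42.7 and 57.1% of all shared genes were above the group mean. Whether these libraries differ in the stage of the grains or in their preparation was not tested, and the results that rest on them are given below with and without them.

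**Figure D3:**
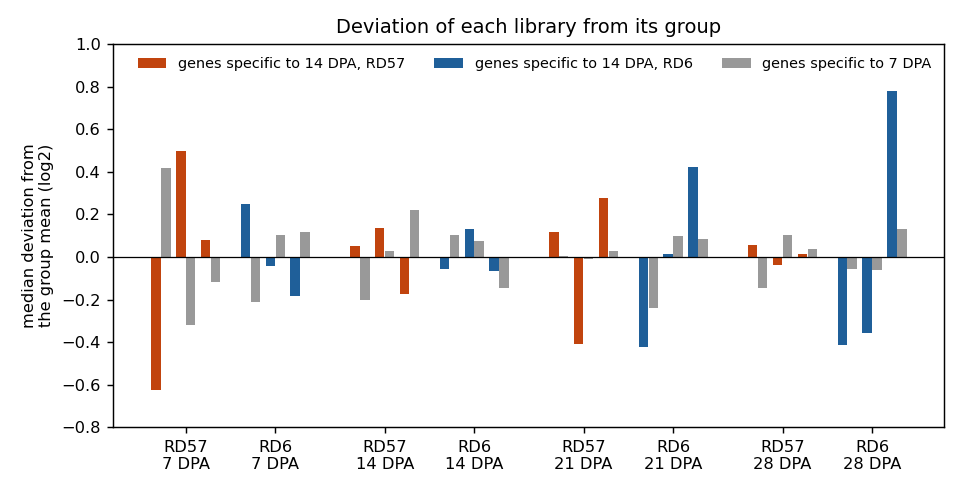
Median deviation from the group mean, in log2 units, of each library (replicates 1 to 3 from left to right within a group) for the 200 genes (coloured) and for the 200 genes chosen by the same rule for 7 DPA (grey), over the genes above 0 in that group. Replicate 1 of RD57 at 7 DPA is at -0.62 for the 200 genes and at 0.42 for the 7 DPA genes. Replicate 3 of RD6 at 28 DPA is at 0.78 for the 200 genes and at 0.13 for the 7 DPA genes.

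The change between 7 and 21 DPA, the DPA before and after the peak, was tested with limma. The rule held both levels below that of 14 DPA but did not use which of them was higher. Genes were called at an adjusted p of at most 0.05 over all 26362 genes. In RD57 more of the 200 genes were called lower than higher after the peak. At 21 over 7 DPA, 13 of the 200 genes (6.5%) were called higher and 61 (30.5%) lower in RD57, and 126 did not pass. Of all genes 29.8% were called higher and 35.9% lower, and of the shared genes 35.5% higher and 35.9% lower. Both shares of the 200 genes were below these, so no excess in either direction is read from the counts. The median log2 fold change of the 200 genes was -0.54, against 0 over all genes and -0.02 over the shared genes. The counts and the median rested on single libraries. Without replicate 1 of RD57 at 7 DPA 93 genes were called lower, without replicate 2 of RD57 at 7 DPA 37 were, and without replicate 2 of RD57 at 21 DPA 34 were. The number called higher was 20 without replicate 2 at 7 DPA. The median was -0.85 without replicate 1 at 7 DPA, -0.24 without replicate 2 at 7 DPA and -0.29 without replicate 2 at 21 DPA.

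In RD6 more of the 200 genes were called higher than lower after the peak. At 21 over 7 DPA, 35 of the 200 genes (17.5%) were called higher and 14 (7%) lower in RD6, and 151 did not pass. Of all genes 28.6% were called higher and 33.1% lower, and of the shared genes 31.0% higher and 35.9% lower. Here too both shares of the 200 genes were below these. The median log2 fold change was 0.05, and it was 0.30 without replicate 1 of RD6 at 21 DPA, 0.16 without replicate 1 at 7 DPA, 0.09 without replicate 2 at 21 DPA, 0 without replicate 3 at 7 DPA and -0.07 without replicate 3 at 21 DPA. The number called higher was 22 without replicate 3 of RD6 at 21 DPA and 23 without replicate 2 or replicate 3 of RD6 at 7 DPA, and the number called lower was 8 without replicate 1 of RD6 at 21 DPA. In both cultivars 10 genes were called higher and 12 lower, where 21.1% of all genes were called higher in both and 25% lower in both. Of the 200 genes, 0 were called in opposite directions, against 1.36% of all genes. The rule keeps the changes of the cultivars less than 2 apart for the 200 genes but not for all genes, so nothing is read from this 0. The others called were 52 genes in RD57 only and 27 in RD6 only, and 99 genes were called in neither cultivar.

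**Figure D4:**
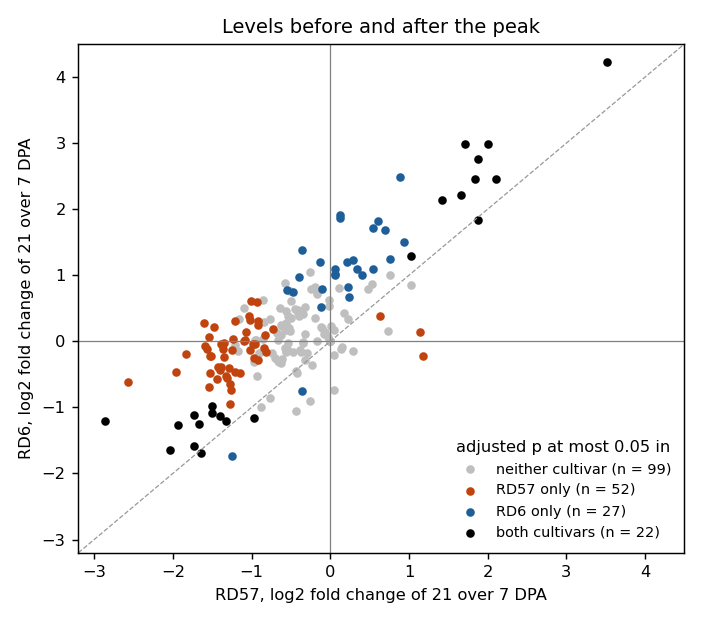
Log2 fold change of 21 over 7 DPA in RD57 and in RD6 for each of the 200 genes, with genes called in both cultivars, in one or in neither marked by colour, and the dashed line where both changes are equal. The genes called in both cultivars are 10 higher and 12 lower, and none was called in opposite directions.

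Of the 10 genes higher at 21 than at 7 DPA in both cultivars, 8 were listed at 0 at 7 DPA. By the mean log2 change of both cultivars, XLOC_024039 and XLOC_017543 came first, an order that depends on the pseudocount since both were at 0 at 7 DPA. XLOC_024039 was at 0 at 7 DPA and held 11.05, 4.38 and 2.82 FPKM at 21 DPA in RD57, and 8.74, 6.93 and 11.5 in RD6. At 14 DPA its levels were 13.9, 22.3 and 16.5 FPKM in RD57, against 22.9, 29.6 and 24.8 in RD6. At 28 DPA it still held 0.531, 1.74 and 1.27 FPKM in RD57 and 1.86, 4.86 and 1.58 in RD6. All its libraries from 14 DPA on were above the floor, and the change of 21 over 7 DPA passed in both cultivars (limma, adjusted p = 1.50e-07 in RD57 and 1.43e-08 in RD6). Its groups at 0 have no spread and lower the SE. With only the libraries compared in the fit, which still holds a group at 0, the change passed less clearly (limma, adjusted p = 0.00163 in RD57 and 5.58e-05 in RD6).

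XLOC_017543 was at 0 at 7 and at 28 DPA and held 16.7, 14.3 and 15.5 FPKM at 14 DPA in RD57, against 19.6, 16.5 and 16.1 in RD6. At 21 DPA it held 2.23, 0.753 and 1.84 FPKM in RD57, against 3.70, 2.11 and 5.25 in RD6. The replicates of 14 DPA lay close together in each cultivar, and those of 21 DPA overlapped between the cultivars. The change of 21 over 7 DPA passed in both cultivars (limma, adjusted p = 5.34e-07 in RD57 and 2.37e-09 in RD6). For this gene too the groups at 0 lower the SE. With only the libraries compared in the fit the adjusted p by limma was 0.00249 in RD57 and 0.000578 in RD6.

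Among the 12 genes that fell between 7 and 21 DPA in both cultivars, XLOC_017193 and XLOC_019366 had the most negative mean log2 fold change of both cultivars. XLOC_017193 held 9.93, 6.58 and 23.3 FPKM at 21 DPA in RD57, against 52.3, 137.0 and 91.5 at 7 DPA, and its log2 fold change was -2.86 (SE 0.42, limma, adjusted p = 5.44e-06). In RD6 it held 14.5, 23.2 and 22.1 FPKM at 21 DPA, against 59.1, 47.1 and 34.0 at 7 DPA, and its log2 fold change was -1.20 (SE 0.42, limma, adjusted p = 0.0177). The libraries of 7 and 21 DPA did not overlap in either cultivar. Without replicate 1 of RD6 at 21 DPA or replicate 1 of RD6 at 7 DPA the change in RD6 no longer passed, at -0.99 (limma, adjusted p = 0.0810) and -1.01 (limma, adjusted p = 0.0743). At 14 DPA the gene held 131.0, 242 and 312 FPKM in RD57 and 165, 226 and 93.1 in RD6, and at 28 DPA it was listed at 0. In RD57 the libraries of 14 and 7 DPA overlapped, at 131.0 and 137.0 FPKM, whereas in RD6 they did not.

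XLOC_019366 held 0.856, 0.789 and 0.924 FPKM at 21 DPA in RD57, against 2.72, 9.99 and 4.64 at 7 DPA, and its log2 fold change was -2.04 (SE 0.39, limma, adjusted p = 1.15e-04). The first of these values at 21 DPA equalled the mean of the other two, as a filled value would. In RD6 it held 0.974, 2.11 and 2.20 FPKM at 21 DPA, against 10.2, 8.07 and 2.99 at 7 DPA, with a log2 fold change of -1.65 (SE 0.39, limma, adjusted p = 0.00104). The 14 DPA levels were 18.4, 10.997 and 11.8 FPKM in RD57 and 17.0, 26.6 and 18.8 in RD6, all above those of 7 DPA, and the gene was listed at 0 at 28 DPA.

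**Figure D5:**
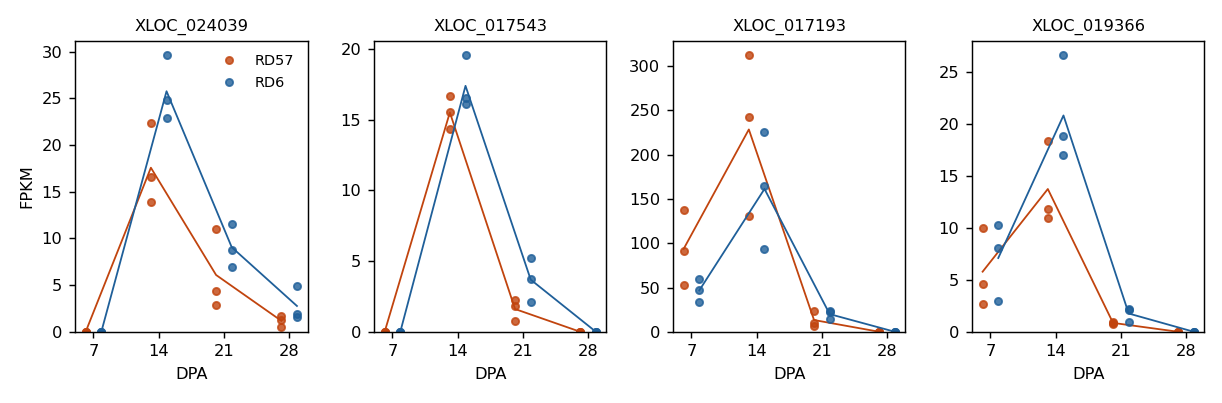
FPKM of the 4 named genes by DPA in RD57 and RD6; points are the 3 libraries of a group and lines join the group means, with a vertical axis of its own for each gene. The points of the cultivars are set apart sideways for legibility. XLOC_024039 and XLOC_017543 are at 0 at 7 DPA and above 0 at 21 DPA, and XLOC_017193 and XLOC_019366 are lower at 21 than at 7 DPA.

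From 21 to 28 DPA most of the genes fell further, and none was called higher. The rule kept the levels of 21 and 28 DPA below that of 14 DPA, but did not use their order. The levels of all genes and of the shared genes were not bounded in this way, so no excess is read from the counts. At 28 over 21 DPA, 127 of the 200 genes were called lower and 0 higher in RD57. Of all genes 11.3% were called lower and 4.89% higher, and of the shared genes 6.86% lower and 2.94% higher. In RD6, 138 of the 200 genes were called lower and 0 higher. Here 22.9% of all genes were called lower and 9.19% higher, and 13.9% of the shared genes lower and 11.5% higher. At an unadjusted p under 0.05, limma also called 0 genes higher in either cultivar. The median log2 fold change of the 200 genes was -1.49 in RD57 and -1.65 in RD6, and 120 genes were called lower in both cultivars, where 8.06% of all genes were. Of the genes called lower, 78 in RD57 and 78 in RD6 were listed at 0 at 28 DPA. Such groups at 0 have no spread and lower the SE. With only the 113 genes above 0 in all libraries compared, 41 were called lower in RD57, with a median of -0.99, and 58 in RD6, with a median of -1.05. With only the libraries compared in the fit, 91 of the 200 genes were called lower in RD6. Without replicate 2 of RD57 at 21 DPA, 131 genes were called lower in RD57, with a median of -1.67. In RD6, 156 were called lower without replicate 3 at 28 DPA, with a median of -2.005. The number was 144 without replicate 1 of RD6 at 21 DPA (median -1.89) and 118 without replicate 3 at 21 DPA (median -1.39).

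RD57 had the higher mean in most of the 200 genes at 7 and 14 DPA and the lower mean in most at 21 DPA. By the rule no gene differed by 1 or more on the log2 scale, but the direction of the difference was free. RD57 had the higher mean in 159 genes and the lower in 25 at 7 DPA, with a median difference of 0.37. At 14 DPA it was higher in 134 genes and lower in 66, with a median difference of 0.17. At 21 DPA it was higher in 46 genes and lower in 145, with a median difference of -0.41. At 28 DPA it was higher in 29 and lower in 84 of the 113 genes above 0. Among all shared genes the share higher in RD57 was 48.6% for 7 DPA, 49.4% for 14 DPA, 55.4% for 21 DPA and 53.2% for 28 DPA. In most genes the libraries of the cultivars overlapped. At 7 DPA all 3 libraries of RD57 were above all 3 of RD6 in 23 genes and below them in 3, where 18.2% of all genes were above and 18.4% below. At 14 DPA they were above in 35 and below in 13, where 19% of all genes were above and 17% below. At 21 DPA they were above in 4 and below in 18, where 20.3% of all genes were above and 20% below. At 28 DPA they were above in 3 and below in 13, where 16.1% of all genes were above and 8.21% below. The rule bounds this difference for the 200 genes but not for all genes. Among the shared genes, under the same bound, 12.2% were above and 14.0% below at 7 DPA, and 12.3% above and 13.0% below at 14 DPA. At 21 DPA 20.1% were above and 11.1% below, and at 28 DPA 13.9% above and 7.91% below. No direction between the cultivars is read from the counts of separated libraries. Leaving out a library gave 119 to 173 genes higher in RD57 at 7 DPA, 119 to 158 at 14 DPA and 35 to 69 at 21 DPA. At 28 DPA it was 70 of the 113 genes above 0 without replicate 3 of RD6, so that the majority turned, and 22 to 35 without any other library.

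The difference of the 21 over 7 DPA change between the cultivars was tested in the same fit. It was called in 20 of the 200 genes, 1 with a change more positive in RD57 and 19 with a change more negative in RD57, where 13.2% of all genes were called more positive and 15.2% more negative. The rule keeps this difference under 2 in size for the 200 genes. Among the shared genes, under the same bound, 5.24% were called more positive and 2.37% more negative. The median difference of the 200 genes was -0.72, and it was below 0 in 170 genes and above 0 in 22. The median was -1.03 without replicate 1 of RD57 at 7 DPA and -0.46 without replicate 2 of RD57 at 7 DPA. The number called was 49 without replicate 1 of RD57 at 7 DPA and 33 without replicate 1 of RD6 at 21 DPA. It was 10 without replicate 2 of RD57 at 21 DPA, 11 without replicate 2 of RD57 at 7 DPA, replicate 3 of RD6 at 21 DPA or replicate 3 of RD6 at 7 DPA, and 12 without replicate 2 of RD6 at 7 DPA.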

How the data were processed

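RNA of developing grains of RD57 and RD6 was sequenced from stranded mRNA libraries. The authors cleaned the reads (Fastp, Trimmomatic; SortMeRNA for rRNA), aligned them to the indica genome ASM465v1 with HISAT2, and obtained FPKM with Cufflinks, Cuffmerge, Cuffquant and Cuffnorm. The deposited FPKM had transcripts merged per gene, values under 0.5 excluded, at least 2 replicates required and a missing replicate filled with the mean of the others, which narrows the spread. How reads of near-identical gene copies were divided was not examined here. Of the chosen genes above 0, those with a filled value made up 1 to 9.73% in RD57 and 2 to 7.07% in RD6 over the DPA, against 0.672 to 1.38% in RD57 and 0.513 to 0.789% in RD6 for the shared genes.

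All 24 columns were matched to samples by name, with 0 columns left over. Values were taken as log2(FPKM + 0.5) without rescaling and fitted with limma 3.58.1 in R 4.3.3 as 8 group means over 24 libraries, with a trended prior variance and Benjamini-Hochberg adjustment over 26362 genes. Library depth is not in the table. The paper's supplement gives the mapped read pairs of each library, but these were not used here, and precision rests on the 3 replicates. Since FPKM are not counts, the edgeR model of the study was left aside. The fit was tested on simulated data.

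The named genes were those called in both cultivars at 21 over 7 DPA in the same direction, 2 with the highest and 2 with the lowest mean fold change. Others were taken by fixed ranks of the score, with the most abundant gene. The alternatives were other pseudocounts, quantile normalization, an untrended prior, genes above 0, fewer libraries in the fit, a replicate block and leaving out each replicate. The 200 genes, the comparisons and the alternatives were chosen with earlier results of these data known. The fit without genes holding a filled value, the alternatives for the counts of genes higher in RD57, and those for the difference of XLOC_017193 and XLOC_017543 were added after the values were seen.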

Additional observations from a re-analysis of the deposited data

Results flagged for a closer look

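The 21 over 7 DPA change differed between RD57 and RD6 in 20 of the 200 genes (limma, adjusted p at most 0.05), 1 more positive and 19 more negative in RD57, where 13.2% of all genes were called more positive and 15.2% more negative. The rule keeps this difference under 2 in size for the 200 genes but not for all genes. Among the shared genes, under the same bound, 5.24% were called more positive and 2.37% more negative. Leaving out a library gave 10 to 49 genes. Of the 4 named genes, XLOC_017193 had a difference of -1.66 on the log2 scale (SE 0.59, limma, adjusted p = 0.0424), with a change of -2.86 in RD57 and -1.20 in RD6. XLOC_017543 had a difference of -0.99 (SE 0.35, limma, adjusted p = 0.0377). Since this gene was listed at 0 at 7 DPA in both cultivars, the value equals the cultivar difference at 21 DPA, where RD57 held 2.23, 0.753 and 1.84 FPKM and RD6 held 3.70, 2.11 and 5.25 FPKM, which overlap. Its groups at 0 have no spread and lower the SE. With only the 6 libraries of 21 DPA in the fit the SE was 0.44 and the difference did not pass (limma, adjusted p = 0.187). With only the libraries compared in the fit neither gene passed (limma, adjusted p = 0.101 for XLOC_017193 and 0.136 for XLOC_017543). Over leaving out each library the adjusted p by limma was 0.00518 to 0.135 for XLOC_017193 and 0.00323 to 0.121 for XLOC_017543.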

How the results depend on the processing

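Over 287 alternatives to 20 results, 247 kept the direction and the side of the threshold, or stayed within 1.5 times for a count. The change of a named gene turned direction in 0 of them. For XLOC_024039 and XLOC_017543 the change of 21 over 7 DPA could not turn, since both were at 0 at 7 DPA and above 0 at 21 DPA. However, the majority of genes higher or lower in RD57 at 28 DPA turned without replicate 3 of RD6. The median of 21 over 7 DPA in RD6 also changed sign without replicate 3 of 21 DPA. Another pseudocount, quantile normalization or the log2 of the mean kept 166 to 174 of the 200 genes, and leaving out a library kept 151 (without replicate 1 of RD57 at 7 DPA) to 195. With only the libraries compared in the fit, the calls at 21 over 7 DPA in RD57 were 49 instead of 74, those at 28 over 21 DPA in RD6 were 91 instead of 138, and those for the difference between cultivars were 11 instead of 20. With only genes above 0 in all libraries compared, 28 over 21 DPA gave 41 calls instead of 127 in RD57 and 58 instead of 138 in RD6, and the difference between cultivars gave 9. Without genes holding a filled value that difference gave 11 calls. The cause of these lower counts was not tested. With only genes above 0, XLOC_017193 stayed in the test with a difference between cultivars of -1.66. It did not pass there (limma, adjusted p = 0.0917). At 28 over 21 DPA the setting of genes above 0 leaves out genes listed at 0 at 28 DPA. These made up 78 of the calls in RD57 and 78 in RD6. Leaving out a library gave 50 to 104 calls at 21 over 7 DPA in RD57, 35 to 46 in RD6 (49 with all libraries), 100 to 131 and 114 to 156 at 28 over 21 DPA in RD57 and RD6, 10 to 49 for the difference between cultivars, and 22 to 70 genes higher in RD57 at 28 DPA. Replicate numbers are shared by the groups, but deviations of same-numbered libraries correlated at -0.17 to 0.30, so that the numbers were not taken as pairs. The best match had the same number in 0 of 3 pairs at 21 over 7 DPA in each cultivar. At 28 over 21 DPA it had the same number in 3 of 3 in RD57 and 2 of 3 in RD6, so a pairing there is not excluded. With a replicate block the calls were 72 and 47 at 21 over 7 DPA in RD57 and RD6, 126 and 139 at 28 over 21 DPA, and 19 for the difference. No count of reads per gene was at hand, so a level of 0 limits what can be said of a gene to being below the floor.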
